A study of Mus musculus with 2 samples.

Results

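The genes described here are 8 genes of arginine metabolism and of the alternatively activated macrophage: Arg1, Nos2, Ass1, Slc7a2, Odc1, Chil3, Retnla and Il4ra. They were picked by name out of the 31053 genes listed for each library, and all 8 matched a gene in the count tables of both libraries. They were followed in every barcode with at least 1000 UMIs (unique molecular identifiers, each counting 1 captured transcript) and at most 17% mitochondrial UMIs, which left 10107 cells of WT and 7604 cells of CD169-DTR mice. Of these cells, 8487 WT and 6560 CD169-DTR cells fell into 6 myeloid classes.

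The cells came from GL261 gliomas, made by injecting 100000 cells of this mouse glioma line into the brains of male C57BL/6 mice aged 8 to 12 weeks. CD169-DTR mice were heterozygous for a targeted allele of Siglec1, the gene of CD169, that carries the diphtheria toxin (DT) receptor, WT mice lacked this allele, and both groups received DT on day -1 and day 4 of tumor injection. On day 10, CD45.2-positive and propidium iodide-negative cells were sorted from the pooled tumor-bearing hemispheres of 3 mice per group and made into 1 droplet library per group. The toxin acts on any cell that carries the receptor, in the tumor and elsewhere. With 1 library per group no test between groups was possible. A level is the UMI count of a gene scaled to 1000000 UMIs of its class (CPM), and 2 levels are set against each other as a log2 ratio, WT divided by CD169-DTR, with 95% intervals that cover counting error only (exact Poisson for levels, exact conditional for ratios, Clopper-Pearson for shares), and the spread between mice is unknown.

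Siglec1, the targeted gene, was lower in CD169-DTR cells in both large myeloid classes. Macrophage-like cells held 702 Siglec1 UMIs in WT and 115 in CD169-DTR, a log2 ratio of 1.66 (1.37 to 1.96). Microglia-like cells held 808 and 293 UMIs, a log2 ratio of 1.75 (1.55 to 1.94). The libraries held 101808996 (WT) and 84065489 (CD169-DTR) UMIs, with a median of 7776 and 8099.5 UMIs per cell, and shared 21 cell barcodes where 11.3 were expected by chance. Classes were named from marker genes: macrophage-like cells, counted at 2271 in WT and 725 in CD169-DTR, comprised 4 clusters led by Slfn4 and Ly6c2, by Clec4e and F13a1, by Gpnmb and Pf4, and by Ear2 and Treml4. Microglia-like cells numbered 4719 and 5369, dendritic cell-like cells 1200 and 252, and granulocyte-like cells 169 and 194. Plasmacytoid dendritic cell-like cells numbered 102 and 11, and basophil or mast cell-like cells 26 and 9. The largest dendritic cell-like cluster, led by Cd209a and MHC class II genes, also held macrophage markers and joined the macrophages at a finer cluster resolution. Macrophage-like cells had a median of 7257 UMIs in WT but 11817 in CD169-DTR, and the share of cells in which a gene was found was therefore read from 4500 UMIs drawn from each cell (thinning).

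Arginine enters myeloid cells through cationic transporters such as Slc7a2 and is then shared between competing enzymes. Arginase 1 (Arg1) splits it into ornithine and urea, inducible nitric oxide synthase (Nos2) turns it into nitric oxide and citrulline, and argininosuccinate synthase (Ass1) starts the route from citrulline back to arginine. Ornithine decarboxylase (Odc1) makes the first polyamine from ornithine. Il4ra is the receptor chain shared by IL-4 and IL-13, whose signal through STAT6 induces Arg1, the chitinase-like protein Chil3 (Ym1) and the resistin-like protein Retnla (Fizz1) in mouse macrophages, the classical picture of alternative activation. In tumors, Arg1 is widely used as a mark of suppressive myeloid cells and Nos2 as a mark of inflammatory ones.

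In the GENCODE annotation of GRCm38, the build of the count tables, all 8 are protein-coding genes. Arg1 spans chr10:24915221-24927484 on the minus strand, Nos2 chr11:78920787-78960254 on the plus strand and Ass1 chr2:31470207-31520672 on the plus strand. Slc7a2 spans chr8:40862396-40922308, Odc1 chr12:17544794-17551505, Retnla chr16:48842551-48844461 and Il4ra chr7:125552120-125579474, all on the plus strand. Chil3 spans chr3:106147554-106167564 on the minus strand. Siglec1, the targeted gene, spans chr2:131069220-131086765 on the minus strand, on the same chromosome as Ass1. Whether DNA linked to the targeted allele bears on the levels was not tested. Upstream windows from RefSeq (GRCm38.p6) were at hand for 5 of the 8 genes (Ass1, Odc1, Chil3, Retnla and Il4ra), and each was cut where the GENCODE gene begins. The windows of the alternative activation products Chil3 and Retnla are shown because Chil3 differed between the libraries in macrophages and Retnla was scarce, a choice made after their values were seen. Both were searched for the palindromes TTCNNNNGAA, a spacing preferred by STAT6, and TTCNNNGAA, the spacing of other STAT sites, each of which reads the same on both strands. Capitals mark the matches, and the windows are written 5′ to 3′ on the strand of the gene.
Chil3, chr3:106167565-106167814, minus strand, 250 bases: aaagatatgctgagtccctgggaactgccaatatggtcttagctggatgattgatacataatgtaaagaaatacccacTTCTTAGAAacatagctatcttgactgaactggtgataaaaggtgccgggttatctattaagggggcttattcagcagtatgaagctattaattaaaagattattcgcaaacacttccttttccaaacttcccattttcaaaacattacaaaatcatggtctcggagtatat
Retnla, chr16:48842359-48842550, plus strand, 192 bases: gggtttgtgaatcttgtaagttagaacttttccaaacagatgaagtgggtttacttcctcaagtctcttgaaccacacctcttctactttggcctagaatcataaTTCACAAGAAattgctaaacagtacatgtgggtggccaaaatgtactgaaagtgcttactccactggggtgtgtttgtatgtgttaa
The Chil3 window held 1 match to TTCNNNGAA, 172 to 164 bases before the RefSeq start, and none to TTCNNNNGAA. The Retnla window held 1 match to TTCNNNNGAA, 145 to 136 bases before the RefSeq start, and none to TTCNNNGAA. Windows of the same length hold such a match in 7.04% (TTCNNNGAA, 250 bases) and 4.60% (TTCNNNNGAA, 192 bases) of 32536 RefSeq starts. Neither sequence was in the windows of Ass1 (187 bases), Odc1 (171 bases) or Il4ra (99 bases).

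The 8 genes differed in where they were found, as the plot of levels by class shows. Arg1 and Chil3 were concentrated in macrophage-like cells, which held 83.5% of all Arg1 UMIs in WT and 94.0% in CD169-DTR cells, and 88.4% and 71.7% of the Chil3 UMIs. Ass1 UMIs of WT were mostly shared between macrophage-like (40.7%) and dendritic cell-like cells (44.0%). In CD169-DTR these classes held 35.9% and 27.4%, and microglia-like cells held 26.2%. Il4ra and Odc1 were spread over all myeloid classes and lymphocytes. Nos2, Slc7a2 and Retnla were scarce in myeloid cells. Nos2 counted 24 UMIs in the 8487 WT myeloid cells and 10 in the 6560 CD169-DTR myeloid cells, Slc7a2 counted 69 and 51, and Retnla counted 0 and 579.

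**Figure D1:**
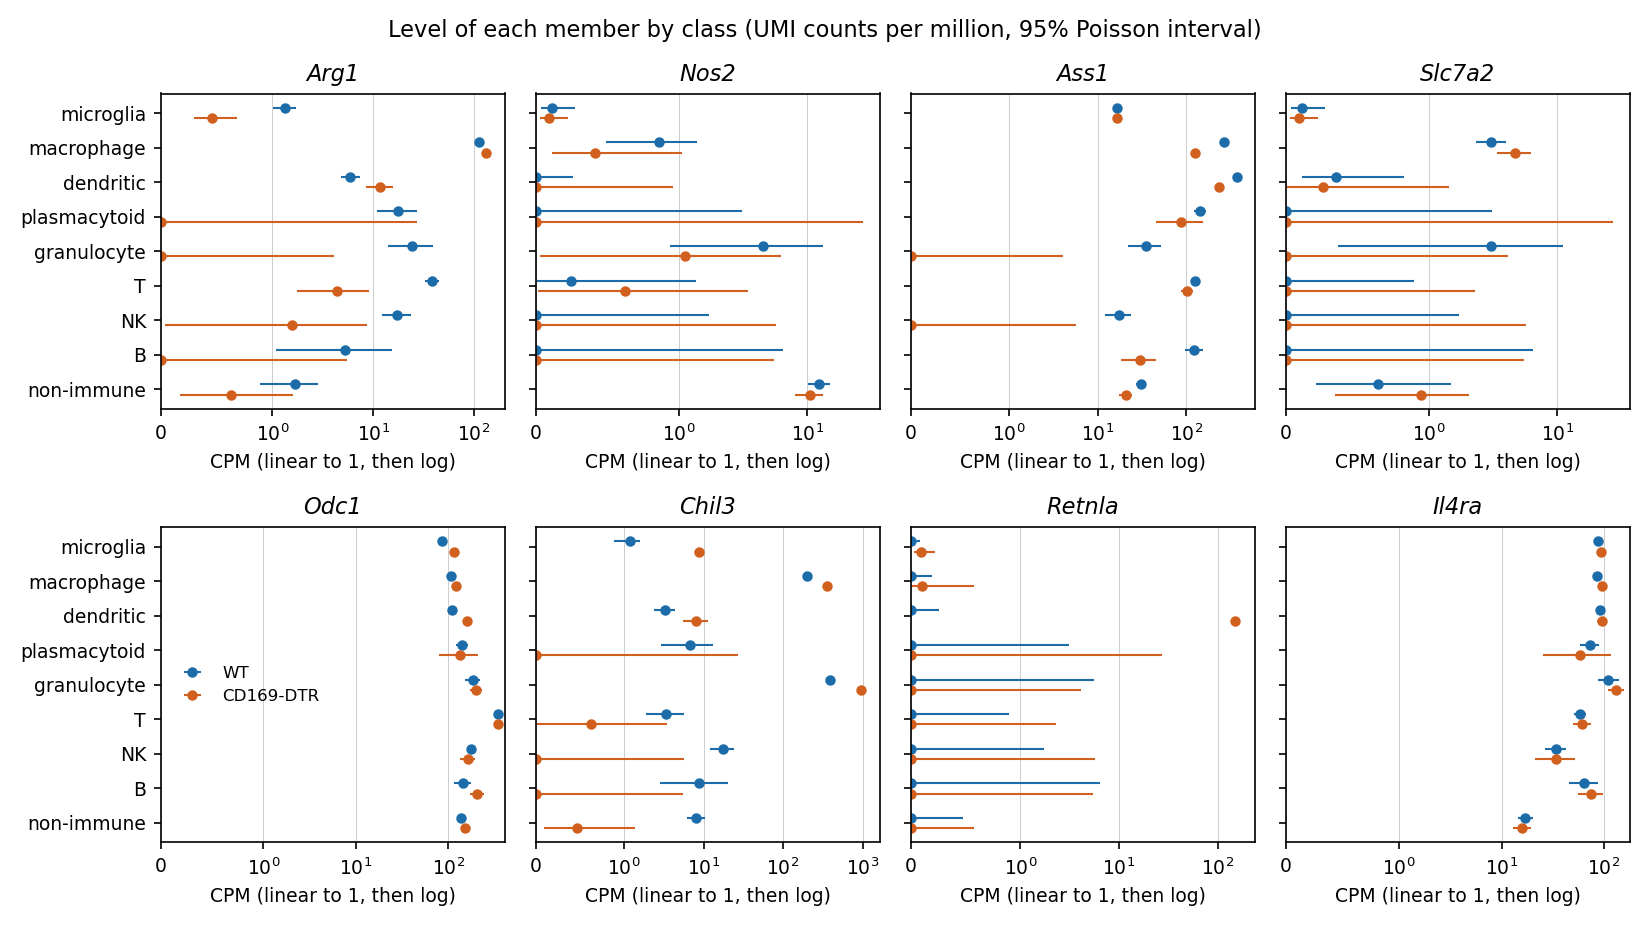
Level of each gene in 9 cell classes (CPM, linear up to 1 and log above) in WT (blue) and CD169-DTR (orange) cells; points are class sums of 1 library and bars the 95% Poisson interval. Arg1 stands highest in macrophages (112 and 132 CPM), Nos2 in non-immune cells (12.4 and 10.4 CPM), and the only Retnla point above 1 CPM (149 CPM) comes from 1 cell.

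Il4ra, the receptor chain at the start of the pathway, was found in every myeloid class. Its level in microglia-like cells was 86.8 CPM (84.0 to 89.6) in WT and 93.1 CPM (90.4 to 95.7) in CD169-DTR, in macrophage-like cells 86.1 (82.0 to 90.5) and 96.9 (90.8 to 103), and in dendritic cell-like cells 92.3 (87.4 to 97.5) in WT, where the 365 CD169-DTR UMIs gave an interval of 85.5 to 105. After thinning, 29.1% of WT and 30.8% of CD169-DTR macrophage-like cells held an Il4ra UMI, against 30.3% and 33.2% of microglia-like and 31.9% and 35.6% of dendritic cell-like cells. Lymphocytes lay lower, with 19.6% and 25.6% of T cell-like cells and 13.7% and 12.7% of NK cell-like cells. The log2 ratio in macrophage-like cells was -0.17 (-0.29 to -0.05), lower in WT. In the microglial clusters Il4ra stayed between 69.3 and 107 CPM in both libraries.

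The genes that carry the IL-4 and IL-13 signal were listed alongside, and 9 of the 12 had at least 20 UMIs in macrophage-like cells. Of these, 7 were higher and 2 lower in WT, with a median log2 ratio of 0.26 against -0.05 over all genes, and 1 lay past 2-fold. Over all 11743 genes of at least 20 UMIs, 3.72% were past 2-fold higher in WT and 1.64% lower. The gene past 2-fold was Socs1, an inhibitor of JAK kinases that many cytokines induce, at 98.4 CPM in WT and 40.5 in CD169-DTR (log2 1.28, 1.12 to 1.44). Il2rg, the common chain of the type I IL-4 receptor, was also higher in WT (94.2 and 63.1 CPM, log2 0.58, 0.44 to 0.71). The lowest ratios were those of Irs2, an adaptor of the receptor (-0.11, -0.29 to 0.07), and Jak1 (-0.08, -0.19 to 0.04).

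Slc7a2, a transporter of arginine, was close to the detection limit in myeloid cells. Macrophage-like cells held 57 UMIs in WT (3.07 CPM, 2.32 to 3.98) and 45 in CD169-DTR (4.68 CPM, 3.41 to 6.26), and after thinning 1.05% and 1.85% of them held a UMI. No lymphocyte held an Slc7a2 UMI (0 of 634 thinned WT and 0 of 297 thinned CD169-DTR lymphocytes). This allows up to 0.473% and 1.01%, taken for every share of 0 as 3 divided by the number of cells. The log2 ratio was -0.61 (-1.20 to -0.01), but it became 0.43 with equal weight per cell. Within clusters it was 1.23 (-0.48 to 3.59) in Slfn4-led and -1.00 (-1.86 to -0.18) in Gpnmb-led macrophages, where 20 WT and 37 CD169-DTR UMIs were counted. Outside the immune classes the gene was denser, at 96.2 and 90.6 CPM in an unnamed cluster of 17 WT and 18 CD169-DTR cells led by Dcn and Col1a1.

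Of 11 other genes of arginine uptake and supply, 7 had at least 20 UMIs in macrophage-like cells, and none of them lay past 2-fold. Their median log2 ratio was -0.29. Slc3a2, the heavy chain that pairs with several amino acid transporters, had the highest ratio (589 and 544 CPM, log2 0.12, 0.07 to 0.16), followed by Asl, the enzyme that follows Ass1, at 43.2 and 45.6 CPM (-0.08, -0.25 to 0.09). The lowest were Slc25a15, the mitochondrial ornithine carrier (25 and 24 UMIs, -0.89, -1.76 to -0.02), and Slc7a6 (-0.55, -1.02 to -0.08). Slc7a1, the constitutive arginine transporter, was present in macrophage-like cells at 17.9 and 20.3 CPM (-0.18, -0.44 to 0.08).

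Ass1 was higher in WT macrophage-like cells. WT cells held 4947 UMIs, or 266 CPM (259 to 274), and CD169-DTR cells 1197, or 124 CPM (117 to 132), a log2 ratio of 1.10 (1.01 to 1.19), or 2.14-fold higher in WT. After thinning, an Ass1 UMI was found in 51.0% (48.5 to 53.4) of macrophage-like cells in WT but in 29.7% (26.2 to 33.4) in CD169-DTR, 21.3 percentage points apart (16.9 to 25.5). NK cell-like cells stood at 4.72% in WT and at 0 of 71 cells in CD169-DTR (up to 4.23%), with a median of 5575 and 6567 UMIs, and T cell-like cells stood at 29.2% and 26.1%, with 128 and 104 CPM. Ass1 was also higher in WT in B cell-like (71 and 20 UMIs, log2 2.05, 1.32 to 2.84), unnamed (79 and 20 UMIs, 2.23, 1.51 to 3.02) and non-immune cells (242 and 132 UMIs, 0.58, 0.27 to 0.90).

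All 4 macrophage-like clusters had more Ass1 in WT. The cluster led by Slfn4 and Ly6c2 stood at 426 and 297 CPM (log2 0.52, 0.37 to 0.68), that led by Clec4e and F13a1 at 298 and 175 (0.77, 0.63 to 0.91), that led by Gpnmb and Pf4 at 82.4 and 53.9 (0.61, 0.38 to 0.84) and that led by Ear2 and Treml4 at 56.5 and 22.2 (1.35, 0.40 to 2.39). The highest of these clusters, the Slfn4 cluster, held 979 of 2271 WT but 163 of 725 CD169-DTR macrophage-like cells. With the clusters given the same weight in both libraries the ratio was 0.62. It was also under 2-fold with equal weight per cell (0.94) and without cells holding a Cd3e or P2ry12 UMI (0.98).

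In dendritic cell-like cells Ass1 was higher still, with 379 CPM (369 to 389) in WT against 238 CPM (223 to 254) in CD169-DTR, a log2 ratio of 0.67 (0.57 to 0.78). It was detected in 69.7% and 52.5% of these cells after thinning. The Ccr7-led cluster, which carries the marker of migrating dendritic cells, held most at 691 CPM in WT and 622 in the 15 CD169-DTR cells (0.15, -0.09 to 0.40), and the Xcr1-led cluster held 220.2 and 145 CPM (0.61, 0.30 to 0.93). In microglia-like cells Ass1 stood at 16.6 and 16.8 CPM (-0.01, -0.16 to 0.13). Within microglia it ranged from 0.612 CPM in the CD169-DTR cells of the P2ry12-led cluster to 57.0 CPM in the CD169-DTR cells of the cluster led by Spp1 and Cd5l. Granulocyte-like cells held 23 Ass1 UMIs in WT, of which 12 sat in 1 cell, and 0 in CD169-DTR.

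Arg1 was carried by few cells with many transcripts. In macrophage-like cells it counted 2073 UMIs in WT (112 CPM, 107 to 117) and 1270 in CD169-DTR (132 CPM, 125 to 139), a log2 ratio of -0.24 (-0.34 to -0.14). The share of cells with an Arg1 UMI gave overlapping intervals, 11.3% (9.78 to 12.9) and 11.7% (9.37 to 14.5), a difference of -0.46 percentage points (-3.54 to 2.33). The 10 cells with the most Arg1 held 36.9% of its UMIs in WT and 51.0% in CD169-DTR macrophage-like cells, with up to 166 and 96 UMIs in 1 cell.

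The shares of lymphocytes with an Arg1 UMI were 2.20% and 1.14% in T cell-like and 0.429% and 1.41% in NK cell-like cells. In WT lymphocytes single cells held many of the Arg1 UMIs: 69 of the 159 in T cell-like cells and 36 of the 37 in NK cell-like cells sat in 1 cell each. Without that cell, WT T cell-like cells still held 90 UMIs (22.1 CPM), where all CD169-DTR T cell-like cells held 7 (4.37 CPM). In microglia-like cells 57 and 24 UMIs were counted (1.33 and 0.461 CPM), of which 28 of the WT UMIs sat in 1 cell. That cell held markers of both large classes: 12 of macrophages, with 52 Ly6c2 UMIs, and 8 of microglia, with 7 Tmem119 but 0 P2ry12 UMIs. In dendritic cell-like cells 84 and 45 UMIs were counted, 30 and 23 of them in 1 cell of each library.

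Arg1 had no common direction across the macrophage-like clusters, as the plot of ratios by cluster shows. The Gpnmb-led cluster held most in WT, at 173 CPM in WT and 147 in CD169-DTR (log2 0.24, 0.09 to 0.38). The Clec4e-led cluster was lower in WT at 94.0 and 151 CPM (-0.68, -0.85 to -0.51), and the Slfn4-led cluster stood at 91.6 and 94.5 CPM (-0.04, -0.33 to 0.25). The cluster led by Ear2 and Treml4 held 1 Arg1 UMI in WT and 0 in CD169-DTR. Single macrophage-like cells held up to 166 (WT) and 96 (CD169-DTR) Arg1 UMIs. The ratios of the clusters were not recalculated without such cells. Counting only the 1813 WT and 470 CD169-DTR macrophage-like cells without a Cd3e or P2ry12 UMI, the log2 ratio of all clusters became -0.50. All 10 microglial markers were detected in macrophage-like cells of both libraries, at a summed level of 2332 CPM in WT and 2649 in CD169-DTR, and the 10 T cell markers summed to 86.9 and 67.5 CPM with 0 and 1 of them at 0. Their part in the result was not tested.

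**Figure D2:**
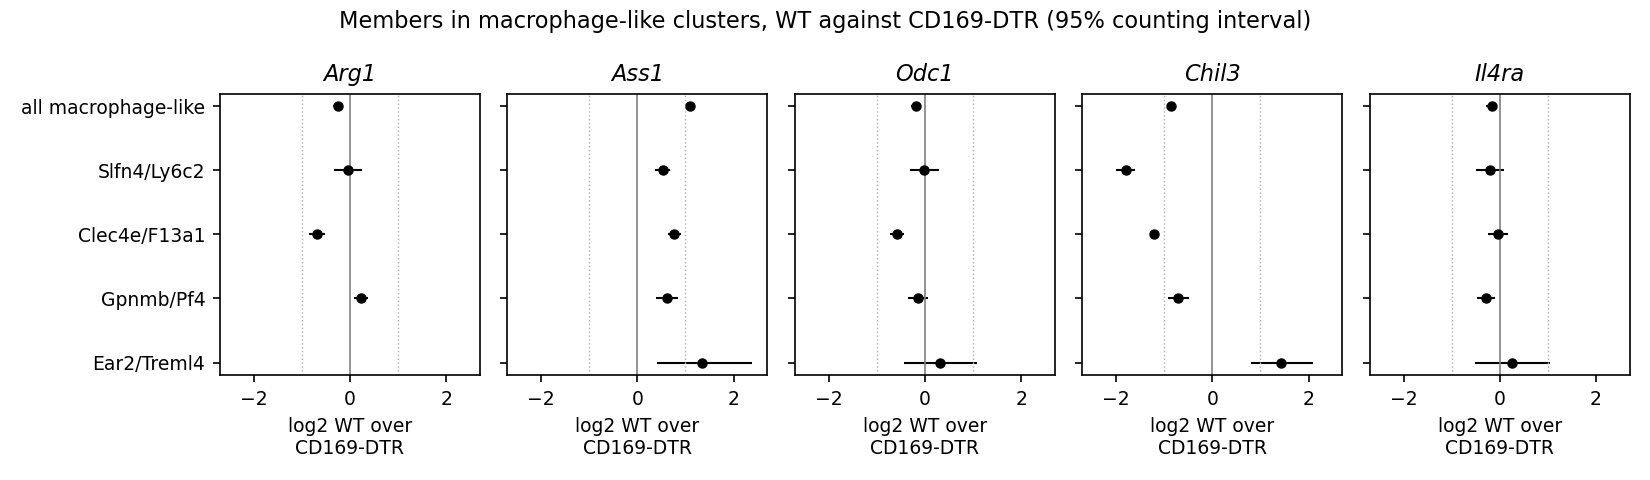
Log2 ratio (WT divided by CD169-DTR) for 5 genes in all macrophage-like cells and in each of the 4 clusters, named by their leading genes; bars are 95% counting intervals and dotted lines mark 2-fold. Ass1 lies right of 0 in all 4 clusters, Chil3 left of 0 in 3 of 4, and Arg1 on both sides (0.24 in the Gpnmb/Pf4 and -0.68 in the Clec4e/F13a1 cluster).

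Other enzymes that act on arginine, on arginine within proteins or on compounds made from it were split in direction. Of the 11 listed, 8 had at least 20 UMIs in macrophage-like cells, 4 were higher and 4 lower in WT, and 1 was past 2-fold. That gene was Gatm, which makes the creatine precursor guanidinoacetate from arginine: 1394 UMIs in WT (75.0 CPM) and 2624 in CD169-DTR (273 CPM), a log2 ratio of -1.86 (-1.96 to -1.77). Gatm was not lower in WT in macrophages alone. Its log2 ratio was -1.62 in microglia-like (230 and 708 CPM), -2.28 in granulocyte-like (19.7 and 95.5 CPM) and -0.68 in dendritic cell-like cells (124 and 200 CPM). Plasmacytoid dendritic cell-like cells counted 19 and 1 UMIs (1.12, -1.53 to 6.50). The cause of the Gatm differences was not tested. Arg2, the mitochondrial arginase and paralog of Arg1, stood at 43.3 and 42.7 CPM (0.02, -0.15 to 0.19) and was highest in granulocyte-like cells at 445 and 345 CPM, where Arg1 counted 16 UMIs in 1 WT cell and 0 in CD169-DTR. Prmt1, an arginine methyltransferase, was lower in WT (-0.39, -0.55 to -0.23). Padi4 (118 and 38 UMIs, 0.69, 0.15 to 1.25) and Nos3 (90 and 31 UMIs, 0.59, -0.01 to 1.23) had the highest ratios of this list.

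Nos2, which competes with Arg1 for arginine, was scarce in the immune cells of these tumors. Macrophage-like cells held 16 UMIs in WT (0.861 CPM, 0.492 to 1.40) and 4 in CD169-DTR (0.416 CPM, 0.113 to 1.06). The log2 ratio of 1.05 rested on these 20 UMIs and its interval of -0.58 to 3.09 included 0. After thinning, 0.124% of 1613 WT and 0.155% of 647 CD169-DTR macrophage-like cells held a Nos2 UMI. No dendritic cell-like cell did (0 of 1061 and 0 of 236, which allows up to 0.283% and 1.27%). Of the 16 WT UMIs, 13 were in the Slfn4-led cluster.

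Most Nos2 UMIs, 78.7% in WT and 85.7% in CD169-DTR, lay in non-immune cells that had passed the sort. All 96 of these UMIs in WT and 62 of the 66 in CD169-DTR sat in the cluster led by Cldn5 and Ly6c1, genes of brain endothelium, at 24.1 CPM (19.5 to 29.5) in WT and 22.8 CPM (17.5 to 29.3) in CD169-DTR. Nos3, the endothelial synthase, stood at 74.8 and 81.3 CPM in non-immune cells. No cell held more than 3 (WT) or 6 (CD169-DTR) Nos2 UMIs.

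The cofactor of nitric oxide synthases, tetrahydrobiopterin, is made by a short chain of enzymes, of which 5 of 6 listed had at least 20 UMIs in macrophage-like cells. None was past 2-fold, and they split in direction. Gch1, the rate-limiting enzyme, was higher in WT at 127 and 81.8 CPM (log2 0.64, 0.52 to 0.75). Qdpr, which recycles the cofactor (-0.80, -1.02 to -0.58), and Spr, the last step of its synthesis (-0.70, -0.92 to -0.48), were lower in WT.

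Odc1 was present in every class and higher in T cell-like than in macrophage-like cells. Macrophage-like cells held 106 CPM (101 to 110.5) in WT against 120.2 CPM (113 to 127) in CD169-DTR, a log2 ratio of -0.19 (-0.29 to -0.08). T cell-like cells held 341 and 346 CPM (-0.02, -0.16 to 0.12). In microglia-like cells the gene was higher in CD169-DTR, at 85.7 and 114 CPM (-0.41, -0.47 to -0.35).

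Among the microglial clusters 1 stood apart. The cluster led by Il1a and Atf3, immediate response and cytokine genes, held 414 CPM in WT and 439 in CD169-DTR (-0.08, -0.18 to 0.01), while the other 8 clusters lay between 44.6 and 136 CPM. This cluster had 321 of 4719 WT and 511 of 5369 CD169-DTR microglia-like cells. The ratio was below 0 in 7 of the 9 clusters and above it in those led by Cxcl13 (0.20, -0.07 to 0.47) and Ccnb2 (0.18, -0.29 to 0.64). Intervals that excluded 0 were found in the clusters led by P2ry12 (45.6 and 73.2 CPM, -0.68, -0.87 to -0.50), Serpine2 (44.7 and 67.8 CPM, -0.60, -0.83 to -0.37) and Mki67 (82.6 and 136 CPM, -0.72, -0.88 to -0.55). In macrophages it was lower in WT in the Clec4e-led cluster (143 and 213 CPM, -0.58, -0.72 to -0.43) whereas the Slfn4-led cluster held 88.1 and 88.6 CPM. In dendritic cell-like cells the ratio was -0.54 (-0.68 to -0.40), with 85 of 603 CD169-DTR UMIs in 1 cell.

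Of the 16 genes of the ornithine and polyamine list, 15 had at least 20 UMIs in macrophage-like cells, 4 were higher and 11 lower in WT, and none was past 2-fold, with a median log2 ratio of -0.11. The highest were the catabolic enzymes Smox, spermine oxidase (112 and 72.6 CPM, 0.63, 0.50 to 0.75), and Sat1, which acetylates spermidine and spermine (1402 and 1085 CPM, 0.37, 0.34 to 0.40). The lowest were Paox, the oxidase of acetylated polyamines (31.1 and 55.4 CPM, -0.83, -1.01 to -0.66), and Srm, spermidine synthase (19.1 and 24.8 CPM, -0.38, -0.62 to -0.14).

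Chil3, a secreted chitinase-like protein, was higher in CD169-DTR macrophages. It counted 3689 UMIs in WT (199 CPM, 192 to 205) and 3449 in the fewer CD169-DTR cells (359 CPM, 347 to 371), a log2 ratio of -0.85 (-0.92 to -0.78), or 1.81-fold higher in CD169-DTR. At a common depth 26.0% (23.9 to 28.2) and 33.2% (29.6 to 37.0) of macrophage-like cells held a UMI, a difference of -7.25 percentage points (-11.5 to -3.10). T cell-like cells gave 0.275% and 0.568%, and NK cell-like cells 2.15% and 0 of 71. With equal weight per cell the ratio was -1.07 and with equal weight per cluster -1.27, both past 2-fold.

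Among the macrophage-like clusters, Chil3 was highest in the Clec4e-led cluster at 359 CPM in WT and 833 in CD169-DTR (-1.21, -1.29 to -1.13). The Slfn4-led cluster held 93.0 and 324 CPM (-1.80, -1.99 to -1.61) and the Gpnmb-led cluster 59.2 and 96.8 (-0.71, -0.93 to -0.49). The Ear2- and Treml4-led cluster went the other way, with 133 CPM in 95 WT cells and 49.5 in 91 CD169-DTR cells (1.43, 0.81 to 2.09). Ear2 and Treml4 are genes of patrolling monocytes.

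In granulocyte-like cells Chil3 had a high average, 393 and 956 CPM, that rested on few cells. Of 259 WT UMIs 233 sat in 1 cell, and of 861 CD169-DTR UMIs 435 did. These cells also held 659 and 1642 Ngp UMIs and 1017 and 1586 Camp UMIs, genes of neutrophil granules made during maturation in the marrow. A similar cell with 398 Chil3, 1416 Ngp and 2520 Camp UMIs lay among the CD169-DTR Mki67-led microglia-like cells and made up 398 of the 462 Chil3 UMIs of that class. The log2 ratio of microglia-like cells, -2.90 (-3.34 to -2.48), became -0.36 without the top cell of each library, and that of granulocyte-like cells became -3.58. Ngp and Camp were picked after the values were seen.

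Retnla was not detected in WT cells at all. It had 0 UMIs in 10107 WT cells, which after thinning (0 of 8131 cells) allows a share of up to 0.0369%. In CD169-DTR cells 579 UMIs were counted, of which 573 sat in 1 cell. That cell lay in the Cd209a-led dendritic cell-like cluster and held 13064 UMIs in all, so that Retnla made up 4.39% of them. It also held 15 Ccl24, 8 Mrc1, 4 Mgl2 and 78 H2-Ab1 UMIs but none of Arg1, Chil3, Cd209a, Clec10a or Ccl17. Of the class markers it held 6 of macrophages and 3 of dendritic cells. Macrophage-like cells of CD169-DTR held 1 Retnla UMI and microglia-like cells 5. The paralog Retnlg, a neutrophil gene, was present in granulocyte-like cells at 4027 and 8075 CPM, and Chil4, the near copy of Chil3, had 0 UMIs in both libraries in the macrophage-like, dendritic cell-like and granulocyte-like cells.

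**Figure D3:**
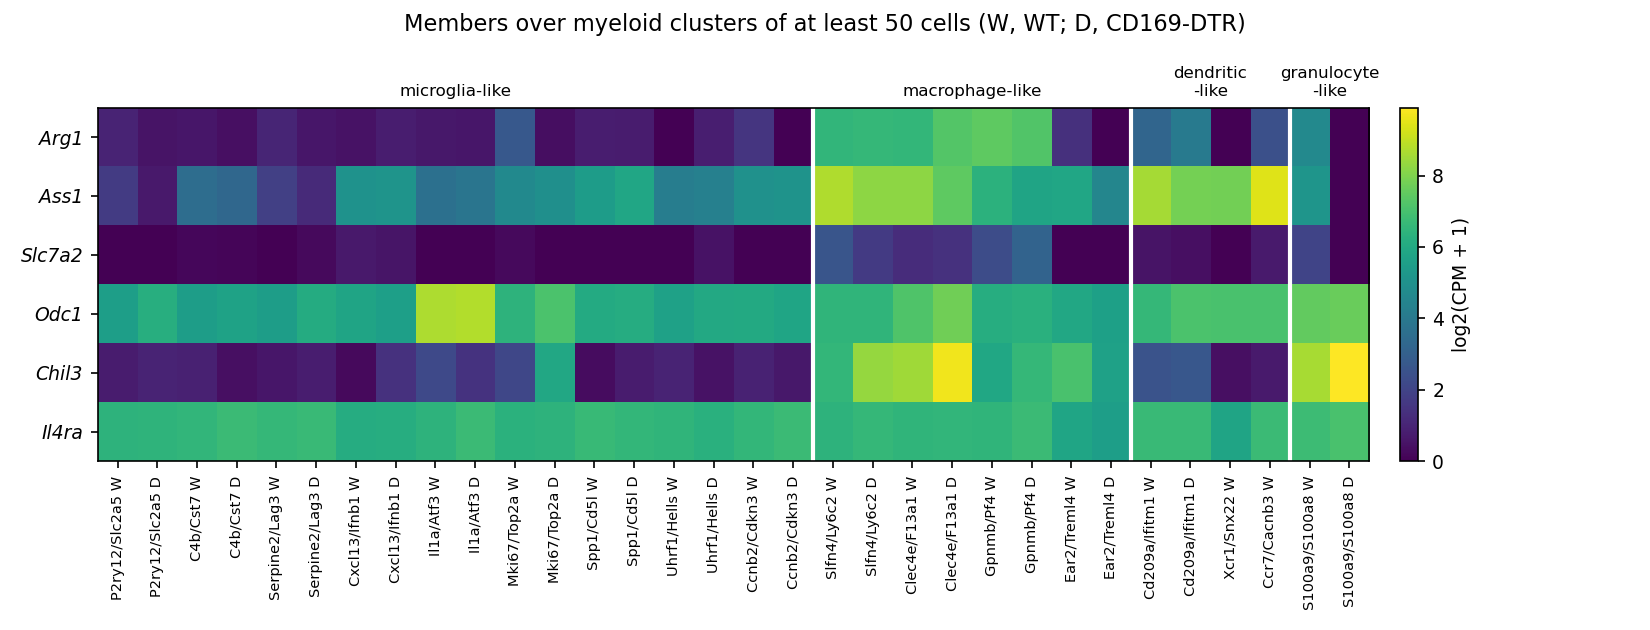
Level of 6 genes, log2(CPM + 1), in each myeloid cluster of at least 50 cells, with WT (W) and CD169-DTR (D) columns side by side and clusters named by their leading genes; plasmacytoid, basophil or mast cell-like clusters are left out. Odc1 is brightest in the Il1a/Atf3 microglia (414 and 439 CPM), Ass1 in the Ccr7 dendritic cells (691 CPM), and the Il4ra row is nearly even.

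Other genes of alternative activation were split in macrophage-like cells. Of 20 listed genes 19 were in the tables and 17 had at least 20 UMIs, 4 of them past 2-fold higher and 3 past 2-fold lower in WT, where 3.72% and 1.64% of all genes were, with a median log2 ratio of -0.18. Higher in WT were the chemokine Ccl24 (20.4 and 4.78 CPM, 2.09, 1.65 to 2.56), the PD-1 ligand Pdcd1lg2 (7.59 and 2.91 CPM, 1.38, 0.79 to 2.02), the lectin Mgl2 (137 and 32 UMIs, 1.15, 0.58 to 1.75) and the chemokine Ccl17 with 51 and 0 UMIs, at least 8.80-fold higher in WT against 3 counts, which reached 20 UMIs through WT alone. Lower in WT were the ribonuclease Ear2 (21.7 and 51.3 CPM, -1.24, -1.43 to -1.04), the scavenger receptor Cd163 (8 and 17 UMIs, -2.04, -3.46 to -0.75) and Cdh1 (11 and 14 UMIs, -1.30, -2.58 to -0.05). The mannose receptor Mrc1 was lower in WT at 15.9 and 25.6 CPM (-0.69, -0.94 to -0.44). Ear2 is itself a leading gene of 1 of the 4 clusters. Ccl17 is counted among the genes past 2-fold higher in WT, although only WT brought it over the UMI limit.

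**Figure D4:**
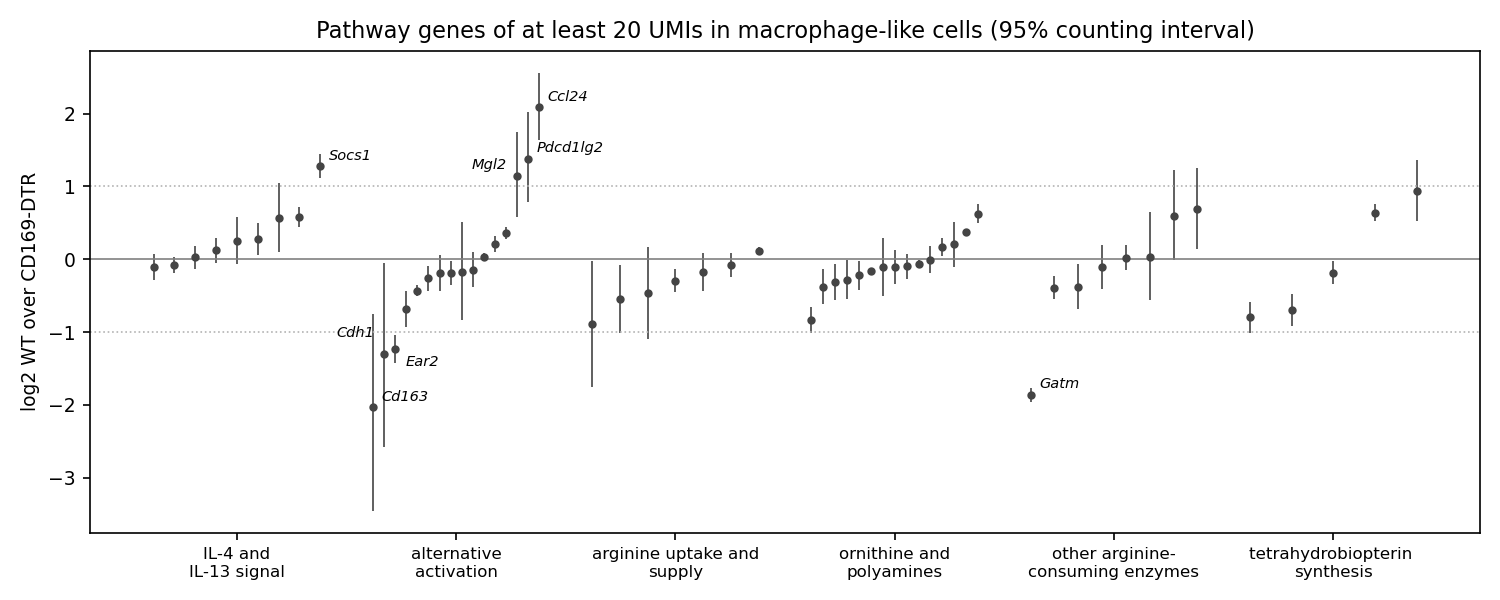
Log2 ratio (WT divided by CD169-DTR) of the genes of 6 lists in macrophage-like cells, ordered within each list, with 95% counting intervals; dotted lines mark 2-fold and genes past it are named. Ccl17, with 0 UMIs in CD169-DTR, is not drawn, and most genes lie within 2-fold of 0.

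Counted together, 7 of the 8 genes had at least 20 UMIs in macrophage-like cells, and 2 of them, Ass1 and Nos2, were past 2-fold higher in WT and 0 past 2-fold lower. Over all genes tested the shares were 3.72% and 1.64%. The median log2 ratio was -0.19 over the 7 genes and -0.05 over all genes. Without the top cell of each gene, or with at least 100 UMIs required, Ass1 alone remained, and with the same weight for every cluster none did while Chil3 was past 2-fold lower. Over the 6 lists 5 of 61 genes were past 2-fold higher in WT and 4 lower. The 5 include Ccl17, which reached 20 UMIs through WT alone.

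In microglia-like cells 5 genes had enough UMIs, of which Arg1 was past 2-fold higher (1.53, 0.82 to 2.28, on 57 and 24 UMIs) and Chil3 past 2-fold lower, where 1.47% and 1.46% of all genes were. The Arg1 ratio was under 2-fold at cluster resolution 0.5 (0.55), with the 8 genes among the variable features (0.61) and without the top cell of each library (0.75). In dendritic cell-like cells Chil3 was past 2-fold lower (46 and 31 UMIs, -1.31, -2.00 to -0.60) and 0 of the genes past 2-fold higher, where 3.01% and 3.65% of all genes were. Retnla reached 20 UMIs there only through 1 CD169-DTR cell and is not counted. In granulocyte-like cells Chil3 was past 2-fold lower (-1.28, -1.49 to -1.08), where 7.35% of all genes were and 4.65% were past 2-fold higher. Ass1 reached 20 UMIs there only through WT and is not counted. Single cells weighed on these values: 1 cell held 28 of the 57 WT Arg1 UMIs and 1 held 398 of the 462 CD169-DTR Chil3 UMIs of microglia-like cells. In granulocyte-like cells 12 of the 23 WT Ass1 UMIs were in 1 cell, and in dendritic cell-like cells 15 of the 31 CD169-DTR Chil3 UMIs.

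Detection of the genes in the same macrophages was read at 4500 UMIs per cell. After thinning, 275 of 1613 WT macrophage-like cells held none of the 8, 38.7% held 1, 30.8% held 2 and 11.2% held 3, and in CD169-DTR 136 of 647 cells held none and the other shares were 37.4%, 29.2% and 10.0%. Arg1 and Chil3 were found together in 54 WT cells where the product of their shares gives 47.3, and in 29 CD169-DTR cells where it gives 25.3. Arg1 and Ass1 were found together in 83 and 21 cells, where 92.7 and 22.6 were given by the product.

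The pairs furthest from the product had intervals that reached close to it. Arg1 and Odc1, which act in sequence, shared 59 WT cells against 44.5, a ratio of 1.33 (1.01 to 1.71), and 21 CD169-DTR cells against 21.1, a ratio of 0.99 (0.61 to 1.52). Ass1 and Chil3 shared 217 WT cells against 213.5 (1.02, 0.89 to 1.16) and 81 CD169-DTR cells against 63.8 (1.27, 1.01 to 1.58). Among WT cells with an Arg1 UMI 31.9% held Il4ra, and among those without it 28.8% did. In CD169-DTR the figures were 35.5% and 30.1%.

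**Figure D5:**
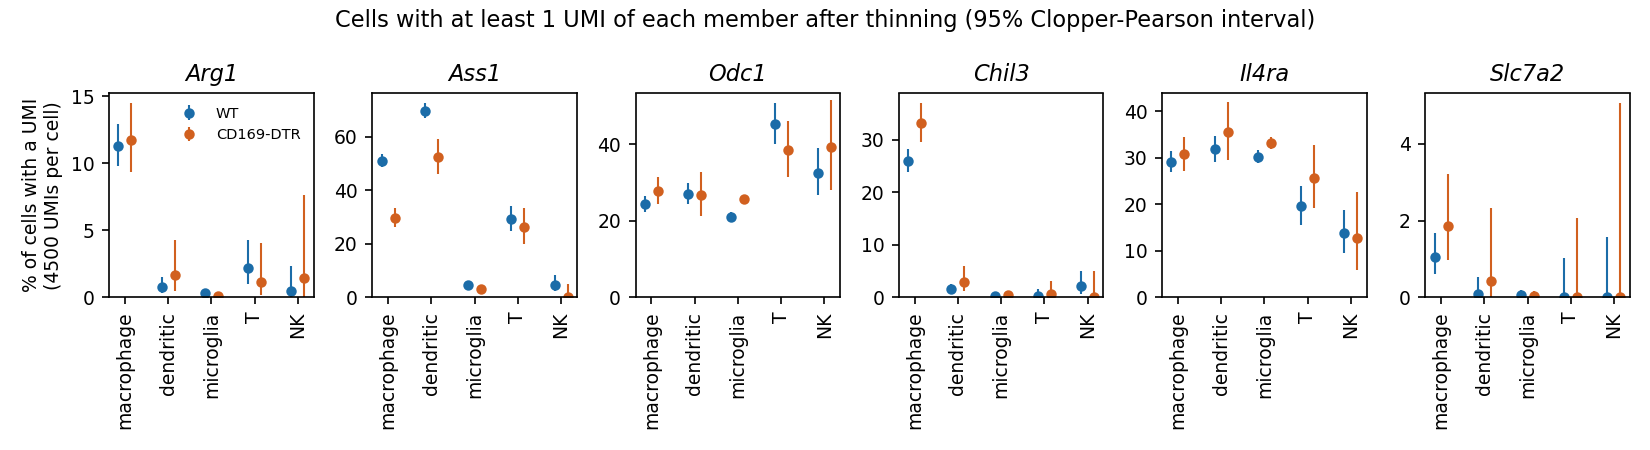
Share of cells with at least 1 UMI of each gene after thinning to 4500 UMIs per cell, in 5 classes of WT (blue) and CD169-DTR (orange) cells, with 95% Clopper-Pearson intervals; each panel has its own vertical scale from 0. Arg1 shares of macrophages overlap (11.3% and 11.7%), Ass1 shares do not (51.0% and 29.7%).

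Macrophage-like cells were also split by whether they held a Siglec1 UMI, which, counted before thinning, 390 of 1613 WT and 87 of 647 CD169-DTR cells of at least 4500 UMIs did. In WT, Chil3 was lower in cells with Siglec1, at 121 CPM against 245 in cells without (log2 -1.01, -1.23 to -0.80). Slc7a2 was higher in cells with Siglec1, at 6.27 against 1.82 CPM on 11 and 10 UMIs (1.79, 0.41 to 3.18), while Arg1 (-0.18, -0.43 to 0.06), Ass1 (0.12, -0.02 to 0.26), Odc1 (-0.01, -0.26 to 0.24) and Il4ra (0.14, -0.13 to 0.40) had intervals that included 0. In CD169-DTR, Chil3 stood at 462 CPM with and 424 CPM without Siglec1 (0.13, -0.11 to 0.35), Slc7a2 counted 1 and 12 UMIs (-0.90, -6.32 to 1.86), and Arg1 stood at 163 and 111 CPM (0.56, 0.15 to 0.96) and Ass1 at 189 and 136 CPM (0.48, 0.10 to 0.84). Levels were taken after thinning, and the part of depth in holding a Siglec1 UMI was not tested.

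The genes whose level over clusters was most like that of each of the genes were named by Pearson correlation of log2(CPM + 10) over 33 points, the myeloid clusters of at least 50 cells in each library, among 11511 genes. The points share 2 libraries and differ in depth, and the values are a description. For Arg1 they were Tfec (0.96), Ecm1 (0.92) and Cd93 (0.92), for Chil3 Clec4e (0.93), Hp (0.93) and Mgst1 (0.93), and for Ass1 Ms4a4c (0.91), A530040E14Rik (0.90) and Stk19 (0.88). For Odc1 they were Zbtb21 (0.90), Slc25a33 (0.88) and Ifrd1 (0.87), and for Il4ra Gm43796 (0.68), Washc2 (0.66) and Dtnbp1 (0.62). Those of Retnla (Ptgds, 0.79, Dcstamp, 0.72, and Wnt11, 0.64) rest on the cluster of its 1 cell. Among the 8 genes themselves Arg1 was most like Slc7a2 (0.83), then Chil3 (0.64) and Ass1 (0.56). Slc7a2 counted only 69 (WT) and 51 (CD169-DTR) UMIs in myeloid cells, close to the detection limit and under the 200 asked of the genes compared above.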

How the data were processed

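The authors aligned 10x Genomics 3′ version 3 libraries to mm10 with Cell Ranger (3.1.0 in the file headers) and deposited raw UMI counts per gene and barcode, before cells were called. Kept barcodes had 1000 UMIs or more, of which mitochondrial genes took 17% or less. Libraries were integrated with Seurat 5.3.0 (2000 variable features without the 8 genes, 50 dimensions) and clustered on 30 dimensions at resolution 1. A cluster was named from 3 or more detected markers (at least 10 UMIs and 25% of the highest cluster), thresholds set after the data were seen. Scrublet marked too few CD169-DTR barcodes to be used for calls, so that no doublets were removed, and only its scores entered an alternative.

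Class sums were scaled to CPM, and share differences have Newcombe intervals. All intervals are 95% and cover counting error only. Where no cell held a UMI, the share allowed is 3 divided by the number of cells, not a Clopper-Pearson limit. Called means at least 2-fold, among genes of at least 20 UMIs. Free RNA was estimated at 167 (WT) and 106 (CD169-DTR) UMIs per droplet from microglial markers in lymphocytes, leaving out the top 10% of them. Named genes are the 8, of each list the 2 highest and 2 lowest ratios and those past 2-fold, the 3 most alike genes, Siglec1, paralogs and markers. The genes and lists were chosen with earlier results of these data known. 1 of the 76 listed genes was not analysed here. A further gene that this rule names is not reported here. Python 3.11.15, numpy 2.4.6, scipy 1.17.1 and pandas 2.3.3 were used, with scanpy 1.11.5 for Scrublet. Alternatives were other resolutions, weights, depths, filters and no integration, and 1 was added after the data were seen. The calculation of the ratio was run on class sums drawn as Poisson counts. Of 11743 macrophage genes with 200 changed 2-fold, 95.6% of intervals held the true ratio and 100% of changed genes had the right sign. These draws follow the model behind the intervals, so they check the calculation only. They say nothing about UMIs gathered in single cells or about the spread between mice.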

Additional observations from a re-analysis of the deposited data

Results flagged for a closer look

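Arg1 had opposite directions in different classes, with intervals that excluded 0: log2 WT over CD169-DTR was 1.53 in microglia-like cells (57 and 24 UMIs), -0.98 in dendritic cell-like cells (84 and 45 UMIs) and -0.24 in macrophage-like cells (2073 and 1270 UMIs). In microglia-like cells 28 of the 57 WT UMIs were in 1 cell, and in dendritic cell-like cells 30 of the 84 WT and 23 of the 45 CD169-DTR UMIs were in 1 cell each. Without the top cell of each library the ratios were 0.75 and -0.59 in these 2 classes, at cluster resolution 0.5 they were 0.55 and -1.97, and with equal weight per cell 1.16 and -0.33. Arg1 also differed in direction between macrophage-like clusters, at 0.24 in that led by Gpnmb and Pf4 and -0.68 in that led by Clec4e and F13a1. These cluster ratios were not recalculated without the top cells. Chil3 was 1.43 in the macrophage-like cluster led by Ear2 and Treml4, whereas it was -1.80 in the cluster led by Slfn4 and Ly6c2, -1.21 in that led by Clec4e and F13a1 and -0.71 in that led by Gpnmb and Pf4. None of these differences between classes or clusters was tested, since each group is 1 library.

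Signal of these genes also appeared in cells outside the immune classes. Nos2 stood at 24.1 CPM in WT and 22.8 CPM in CD169-DTR cells of the non-immune cluster led by Cldn5, where the highest myeloid cluster held 4.55 CPM. Slc7a2 stood at 96.2 CPM (WT) and 90.6 CPM (CD169-DTR) in the unnamed cluster led by Dcn and Col1a1 and at 49.9 CPM in CD169-DTR cells of the unnamed cluster led by Acta2, where the highest myeloid cluster held 7.98 CPM.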

How the results depend on the processing

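No paired analysis was possible because each group is 1 library, and no replicate could be left out. Under the alternatives 258 values stayed within the counting interval of the main value, or within 1.5 times the main count, and 59 did not. In macrophage-like cells the log2 ratio of Arg1 was -0.42 at resolution 2, -0.13 with equal weight per cell and -0.50 without cells holding a Cd3e or P2ry12 UMI. Under the same settings Chil3 was -1.03, -1.07 and -1.10, and -1.27 with the same weight for every cluster. Ass1 was 0.94 with equal weight per cell, 0.62 with the same weight for every cluster and 0.98 without the Cd3e or P2ry12 cells. Slc7a2 became 0.43, 0.063 and 0.14 under these 3. Odc1 was -0.32 with equal weight per cell and -0.31 with the same weight per cluster, and Il4ra -0.021 with equal weight per cell. In microglia-like cells Arg1 was 0.55 at resolution 0.5, 0.61 with the 8 genes among the variable features and 0.75 without its top cells. The cause was not tested.

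Of the 7 genes with at least 20 UMIs in macrophage-like cells, 2 were past 2-fold higher and 0 lower in WT. Over all genes 3.72% and 1.64% were, and these shares were not recalculated under the alternatives. The count of these genes became 1 higher without the top 8% of doublet scores, without the top cell of each gene and with 100 UMIs required (chosen after seeing the data). It was 1 and 1 at resolution 2 and with equal weight per cell, and 0 and 1 with the same weight per cluster and without the Cd3e or P2ry12 cells. Of 61 pathway genes 5 were higher, among them Ccl17 through WT alone, and 4 lower. These counts became 3 higher at resolution 0.5, 2 lower at resolution 2 and with 100 UMIs required, and 3 higher and 2 lower without the top cell. The differences in shares between WT and CD169-DTR macrophages depended on depth: Ass1 was 14.9 percentage points at 2000 UMIs and 6.81 without thinning, and without thinning Slc7a2 was -2.26, Odc1 -16.9 and Il4ra -13.8. Co-detection of Arg1 and Odc1 over the product was 1.33 in WT and 0.99 in CD169-DTR, but 1.05 and 1.86 at 2000 UMIs and 1.14 and 1.07 without thinning. Nos2 counted 20 UMIs in macrophages of both libraries together.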
